A study of Mus musculus with 2 samples.

Results

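The mouse genome encodes 4 receptors for the Fc part of immunoglobulin G (IgG) that macrophages can carry on their surface, and 1 signalling chain that the activating ones need. The genes are Fcgr1, Fcgr2b, Fcgr3, Fcgr4 and Fcer1g, taken by their symbols in the deposited tables, and they are 5 of 55450 genes with a symbol. Each of them was detected at a TPM of 1 or more in every library. TPM is a relative transcript abundance corrected for transcript length, so that levels of genes of different length can be set side by side.

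The series measured total RNA, depleted of ribosomal RNA, from the nucleoplasmic fraction of cultured macrophages derived from bone marrow. The mice were of strain C57BL/6J, with no other allele named in the labels, and the sex and age were not collected. All cells had received 100 ng/ml of lipid A, the membrane anchor of bacterial endotoxin and a ligand of TLR4, and were taken after 90 min. The labels give a single group with 2 biological replicates under a shared donor entry, and part of their spread may therefore be technical. Replicate 1 was made from 1 µg of RNA and replicate 2 from 500 ng. With no unstimulated and no cytoplasmic library in the group, no comparison between conditions was possible, and levels are given per library.

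Fc gamma receptors bind the constant part of IgG and let a macrophage take up antibody-coated particles. Fcgr1 encodes the high-affinity receptor (CD64), and Fcgr3 (CD16) and Fcgr4 encode activating receptors of lower affinity. These 3 receptors have no signalling motif of their own in the mouse and depend on the common gamma chain encoded by Fcer1g, which carries an immunoreceptor tyrosine-based activation motif (ITAM). Once phosphorylated by Src family kinases, the ITAM recruits the kinase Syk. Fcgr2b (CD32B) encodes the inhibitory receptor, whose own cytoplasmic tail carries an immunoreceptor tyrosine-based inhibition motif (ITIM) that recruits the lipid phosphatase SHIP1 (Inpp5d). The balance of activating and inhibitory receptors is known to set the threshold at which immune complexes activate a macrophage.

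Fcgr2b, Fcgr4, Fcgr3 and Fcer1g lie on chromosome 1 within 275.7 kb of mm10, measured over the gaps and the genes between. Fcgr2b spans chr1:170958617-170976547 on the minus strand, and Fcgr4 begins 42.4 kb to its right at chr1:171018920-171029761 on the plus strand. Fcgr3 follows after a further 21.4 kb, at chr1:171051174-171064935 on the minus strand. Fcer1g, at chr1:171229572-171234365 on the minus strand, lies 164.6 kb beyond Fcgr3. Fcgr1 is apart from the others, at chr3:96282909-96293969 on the minus strand.

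The signalling motifs that set the common chain and the inhibitory receptor apart are shown first, since every level below refers to one or the other. In the coding sequence of the main Fcer1g transcript, Fcer1g-201, the ITAM occupies codons 65 to 79 of 86, and in that of Fcgr2b-201 the ITIM occupies codons 317 to 322 of 340. Capitals mark the codons of the tyrosine motifs, and both sequences are from the minus strand of mm10.
Fcer1g-201 ITAM: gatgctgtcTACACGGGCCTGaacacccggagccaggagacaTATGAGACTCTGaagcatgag
Fcgr2b-201 ITIM: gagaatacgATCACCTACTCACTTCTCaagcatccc
Each printed stretch includes 3 codons on either side of the motif. The ITIM stretch lies within a single exon and occupies chr1:170961062-170961097. The ITAM stretch is split over exons within chr1:171229880-171230081. No ITAM was found in the reading frames of the protein-coding transcripts of Fcgr1, Fcgr2b, Fcgr3 or Fcgr4, searched as a tyrosine codon with a leucine or isoleucine codon 3 codons later, repeated after a spacer of 6 to 12 codons.

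Fcgr2b and Fcgr3 share sequence to a degree that can bear on how reads were divided between them. Exon 4, which encodes an immunoglobulin-like domain of the extracellular part, is 255 bases long in both genes and differed at 5 of them. The exon is shown for both, in capitals where they differ.
Fcgr2b exon 4: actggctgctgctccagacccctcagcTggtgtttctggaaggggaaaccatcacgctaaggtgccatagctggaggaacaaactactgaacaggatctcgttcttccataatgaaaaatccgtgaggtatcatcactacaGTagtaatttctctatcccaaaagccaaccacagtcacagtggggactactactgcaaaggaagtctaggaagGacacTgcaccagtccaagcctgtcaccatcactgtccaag
Fcgr3 exon 4: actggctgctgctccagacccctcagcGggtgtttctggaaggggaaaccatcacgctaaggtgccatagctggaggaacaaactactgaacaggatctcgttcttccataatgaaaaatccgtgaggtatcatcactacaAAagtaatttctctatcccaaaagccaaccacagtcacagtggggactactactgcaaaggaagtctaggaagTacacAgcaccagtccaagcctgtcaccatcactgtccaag
The Fcgr2b copy is at chr1:170966446-170966700 and the Fcgr3 copy at chr1:171053939-171054193 of mm10, both on the minus strand, and the longest stretch without a difference was 113 bases. Exon 3, the other domain exon, differed at 14 of 255 bases. The same exons of Fcgr4 were 55.7% to 61.6% identical to those of Fcgr2b and Fcgr3. Over all annotated transcripts, Fcgr2b and Fcgr3 had 233 distinct 31-base words in common, 4.15% of the words of Fcgr2b and 13.4% of those of Fcgr3, and no other pair of the 5 genes shared any. A read that lies wholly within such a stretch cannot be told apart, and the deposited values divide such reads by estimation. The levels of Fcgr2b and Fcgr3 carry that uncertainty, and those of the other 3 genes do not carry it between each other. How many reads were shared in this way was not measured. Words were also shared with genes outside the 5. Fcgr2b shared some with 83 other genes, at most 40 words with any of them. Fcgr4 shared some with 28 other genes, at most 9 words with any, so its level may not be free of such reads either. Fcgr1, Fcgr3 and Fcer1g shared none outside the 5.

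The cells carried the markers of macrophages. All 12 macrophage marker genes examined reached 1 TPM in each library, with Lyz2 (lysozyme) at 916 and 1103 TPM and Mpeg1 (perforin-2) at 371 and 572. Of 44 markers of B cells, NK and T cells, neutrophils, mast cells and other granulocytes, dendritic cells and platelets, S100a9 and Zbtb46 alone reached 1 TPM in each library, at 1.59 and 1.54 TPM for S100a9 and 1.05 and 2.12 for Zbtb46. In the remaining lists the highest genes were Ltf and Ccr9 after those named, Cd79b and Cr2 of B cells, Klrd1 and Klrb1c of NK cells, Prg2 and Cpa3 of granulocytes and mast cells, and Itga2b and Ppbp of platelets, with mean levels from 0.010 to 0.875 TPM. The summed level of each of these 6 lists was at most 4.52 TPM. Markers at 0 in both libraries were 6 of 9 of mast cells, basophils and eosinophils, 5 of 8 of NK and T cells and 3 of 8 of neutrophils. They were 0 of 8 of B and plasma cells, 0 of 6 of dendritic cells and 0 of 5 of platelets. The libraries held 22402808 and 14888406 estimated counts in named genes. TPM was higher in replicate 2 by a median of 0.39 on the log2 scale across 9011 protein-coding genes, so TPM values of the same gene in both libraries are not on one scale, and differences between the libraries are given below from scaled counts. The SDs of TPM given below include this shift. They do not measure how steady a gene was between the libraries.

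Fcgr2b, the inhibitory receptor gene, had the highest level of the 5 genes. Its TPM was 268.6 in replicate 1 and 314.1 in replicate 2, or 291.3 ± 32.2 (SD, n = 2), from 13909 and 9349 estimated counts. It ranked 81st and 80th of 8566 expressed protein-coding genes, which are those that reached 1 TPM in each library, and stood at 40.6 and 36.1 times their median level. The protein-coding genes next above it in mean level were B2m, the light chain of MHC class I, with 253.9 and 340.3 TPM, and the predicted gene Gm21887 with 370.4 and 215.4. Next below were Mx1, an interferon-induced antiviral GTPase, with 368.9 and 208.7 TPM, and the phospholipase gene Ddhd1 with 236.4 and 331.0.

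Fcer1g, the common chain gene, followed at 202.0 and 219.5 TPM, a mean of 210.7 ± 12.3 (SD, n = 2), from 2995 and 1725 counts. Its rank was 125 in replicate 1 and 139 in replicate 2. Fcgr2b was 1.33 and 1.43 times as high as Fcer1g, and the lower Fcgr2b library exceeded the higher Fcer1g library. This order did not hold in the second deposited quantification, where Fcer1g had 238.1 and 202.7 TPM and Fcgr2b 210.6 and 210.2, with Fcer1g higher in replicate 1.

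Among the activating receptors, Fcgr3 was highest, with 49.3 and 50.2 TPM, or 49.8 ± 0.58 (SD, n = 2), from 1899 and 961 counts. This small SD holds on the shifted TPM scale only. With TPM rescaled to the sum over protein-coding genes, Fcgr3 was at 253.7 ± 33.9 (SD, n = 2). In TPM it was 4.09-fold and 4.38-fold below Fcer1g. Fcgr1 had 15.7 TPM in replicate 1 and 11.6 in replicate 2, or 13.7 ± 2.9 (SD, n = 2), from 1051 and 477 counts. Fcgr4 had 14.3 and 12.7 TPM, or 13.5 ± 1.2 (SD, n = 2), from 515 and 228 counts. Fcgr3 exceeded Fcgr1 3.14-fold and 4.32-fold, without overlap of the libraries. Fcgr1 and Fcgr4 could not be ordered, since Fcgr1 was 1.10 times as high as Fcgr4 in replicate 1 and 0.92 times in replicate 2. Both lay above the median of expressed protein-coding genes, by 2.37-fold and 1.34-fold for Fcgr1 and by 2.16-fold and 1.46-fold for Fcgr4. Among the genes next to Fcgr4 in mean level were Ero1l above it, at 13.47 TPM, and Copg1 and Evi2b below it, at 13.47 and 13.46.

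The deposited interval bounds of TPM describe the uncertainty of the estimate in 1 library, and they lie around a posterior mean that can differ from the TPM itself. For Fcgr1 they ran from 13.2 to 17.4 in replicate 1 and from 10.2 to 13.6 in replicate 2, and for Fcgr4 from 12.7 to 15.1 and from 10.4 to 13.5. The bounds of these 2 genes overlapped in each library. For Fcgr3 they ran from 45.8 to 50.1 and from 44.3 to 50.3, apart from all the others. The TPM of Fcgr2b, 268.6 and 314.1, lay above its bounds of 254.1 to 266.5 and 286.0 to 303.5. For Fcer1g the replicate 2 TPM of 219.5 lay above its bounds of 196.2 to 215.9.

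Each of the 5 genes reached 10 TPM in both libraries, a level also reached by 37.6% of the 8566 expressed protein-coding genes. In the second quantification 4 of the 5 did, again against 37.6%, since Fcgr4 was at 8.44 TPM in replicate 2. A level of 100 TPM in both was reached by 2 of them, Fcgr2b and Fcer1g, against 3.28% of the same genes.

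**Figure D1:**
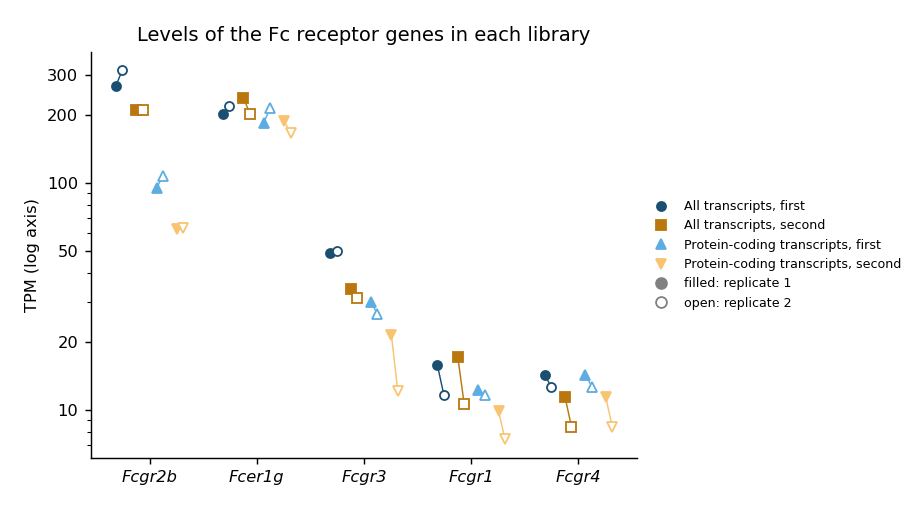
TPM on a log axis for the 5 genes, in both deposited quantifications, over all annotated transcripts and over protein-coding transcripts alone. Filled symbols are replicate 1 and open symbols replicate 2, joined by a line; the symbols of Fcgr2b drop from 268.6 and 314.1 TPM to 95.0 and 107.7 when only protein-coding transcripts are counted, while those of Fcgr4 stay in place.

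The summed TPM of the activating receptors Fcgr1, Fcgr3 and Fcgr4 was below that of the inhibitory Fcgr2b in both libraries. The ratio of activating to inhibitory was 0.295 in replicate 1 and 0.237 in replicate 2, or 0.266 ± 0.041 (SD, n = 2). The second quantification gave 0.298 and 0.239. Fcgr3, which shares sequence with Fcgr2b, made up most of the numerator, and without it the ratio was 0.112 and 0.077. In TPM, which corrects for length, the common chain exceeded the receptors that use it, with a ratio of Fcer1g to the summed activating receptors of 2.55 and 2.95, or 2.75 ± 0.28 (SD, n = 2), and of 3.797 and 4.033 in the second quantification. In estimated counts, which do not correct for the short length of Fcer1g, that ratio was 0.864 and 1.04, so the direction turned in replicate 1. These ratios compare RNA in the nucleoplasm and not receptor protein. Other receptor genes whose products pair with the same chain were also present, with 5 of the 8 examined reaching 10 TPM in each library. The highest were Clec4e (Mincle), a receptor for mycobacterial glycolipid, at 151.7 and 210.0 TPM, Clec4d (MCL) at 114.9 and 130.3, and Pira2, an activating immunoglobulin-like receptor, at 18.8 and 33.5.

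The annotation lists 17 transcripts for the 5 genes, 11 of them protein coding, and the share of TPM given to the other 6 differed strongly between the genes. In Fcgr2b it was 64.6% of the TPM in replicate 1 and 65.7% in replicate 2. In Fcgr3 it was 39.2% and 47.3%, in Fcgr1 22.5% and 0%, and in Fcer1g 8.62% and 2.37%. Fcgr4 has a single annotated transcript, which is protein coding, so no such share can arise there. Across 7199 expressed protein-coding genes with at least 1 transcript not annotated as protein coding, the median share was 40.1% and 39.1%. A share over 50% in both libraries was found in 29.6% of these genes and in 1 of the 5, Fcgr2b, whose share exceeded that of 81.1% and 81.0% of the genes. In the second quantification the median share was 53.2% and 53.1%, and 48.3% of the genes were over 50% in both libraries. Fcgr2b was again the sole one of the 5, at 70.2% and 69.7%, above 73.4% and 71.6% of the genes. In estimated counts, which do not correct for length, the Fcgr2b share was 50.3% and 48.8%. On that measure it was not over 50% in both libraries. In total nuclear RNA, reads from unspliced or partly spliced precursor cannot be told apart in these tables from reads of an annotated retained-intron transcript.

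**Figure D2:**
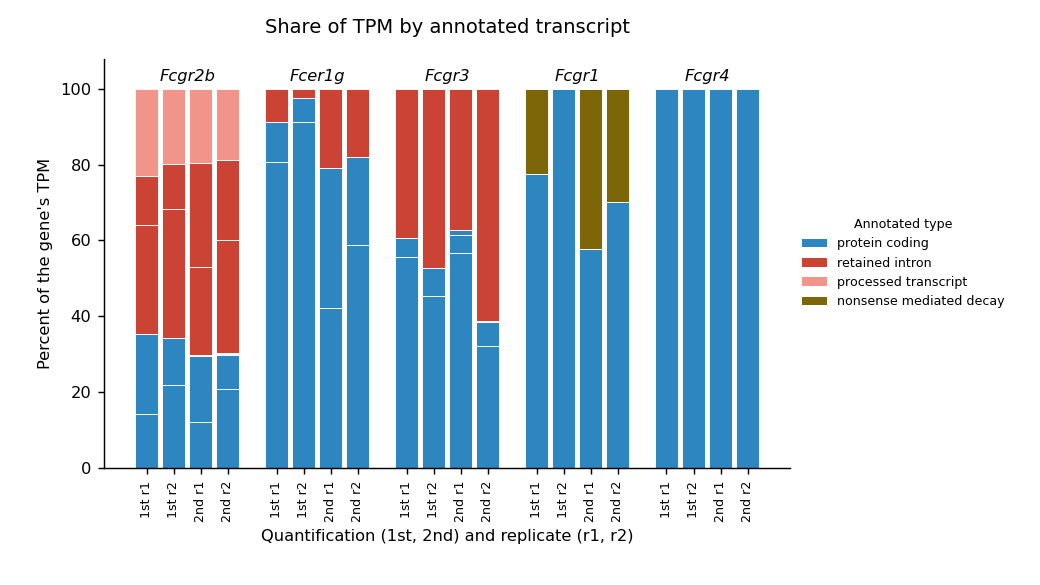
Percent of each gene's TPM by annotated transcript, for the first and second quantification and replicates 1 and 2. Each block is 1 transcript, coloured by its annotated type; transcripts that are not protein coding hold over 60% of Fcgr2b in every bar and none of Fcgr4.

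Counting protein-coding transcripts alone changed the order of the genes. Fcer1g was then highest, with 184.6 and 214.3 TPM, and Fcgr2b had 95.0 and 107.7. Fcgr3 had 29.98 and 26.41 TPM, Fcgr4 14.3 and 12.7, and Fcgr1 12.2 and 11.6. On this measure the activating to inhibitory ratio was 0.594 and 0.470, below 1 in both libraries. The second quantification, restricted in the same way, gave 0.682 and 0.440.

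The leading Fcgr2b transcript in the first quantification was Fcgr2b-205, annotated as a retained intron, with 77.3 TPM in replicate 1 and 107.0 in replicate 2, or 28.8% and 34.1% of the gene. It keeps 1369 bases of intron 5, at chr1:170964333-170965701, and ends within it, before exon 6. Its junction is shown as the place where this transcript leaves the coding ones, with the last 30 bases of exon 5 in lower case and the first 60 bases of intron 5 in capitals, on the minus strand at chr1:170965642-170965731 of mm10.
Fcgr2b-205 exon 5 to intron 5: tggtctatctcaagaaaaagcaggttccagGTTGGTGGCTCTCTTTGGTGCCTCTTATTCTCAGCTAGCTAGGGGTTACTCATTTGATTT
Fcgr2b-206, a processed transcript of 2 exons at the far end of the gene that includes 397 bases of intron 6, had 61.6 and 62.2 TPM. Fcgr2b-207, which joins the first exon to a second exon running 214 bases into intron 2, had 34.7 and 37.1. In the second quantification the 3 transcripts had 48.7 and 62.9 TPM, 41.0 and 39.6 TPM, and 58.2 and 44.1 TPM, so that Fcgr2b-207 led in replicate 1 and Fcgr2b-205 in replicate 2.

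Both abundant protein-coding forms of Fcgr2b were present, and they differ in exon 6. This exon adds 47 codons to the cytoplasmic tail ahead of the ITIM. As background, the form with it (b1) is the one best known from B cells, and the form without it (b2) is the one known from macrophages, where it can be internalised with its ligand. The exon lies at chr1:170963325-170963465 on the minus strand of mm10. It is given in capitals with 15 bases of exon 5 and exon 7 on either side, which join directly in the form that lacks it.
Fcgr2b exon 6: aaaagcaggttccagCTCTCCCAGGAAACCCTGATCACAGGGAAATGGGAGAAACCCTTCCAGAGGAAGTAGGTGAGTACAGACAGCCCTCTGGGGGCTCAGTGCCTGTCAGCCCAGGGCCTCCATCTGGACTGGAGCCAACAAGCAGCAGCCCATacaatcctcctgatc
Fcgr2b-201, with exon 6, had 38.6 TPM in replicate 1 and 68.6 in replicate 2, and Fcgr2b-202, without it, had 56.3 and 39.2. The form without the exon was higher in replicate 1 and the form with it in replicate 2, so the order by TPM differed between the libraries. The ratio of the form with the exon to the form without it was 0.685 and 1.75, and in the second quantification 0.696 and 2.32. In estimated counts, in which the longer Fcgr2b-201 gathers more reads, the form with the exon was higher in both libraries, at 1.84 and 4.67. The deposited bounds did not overlap between the forms in either library. They were 36.1 to 38.8 against 51.1 to 57.6 in replicate 1 and 61.9 to 66.5 against 32.9 to 40.8 in replicate 2. In replicate 2 the TPM of Fcgr2b-201, 68.6, lay above its own bounds. The 2 forms also differ in the annotated length of the last exon, 2484 bases in Fcgr2b-201 and 543 in Fcgr2b-202, so reads from the longer 3′ end and reads over exon 6 were both assigned to Fcgr2b-201, and the deposited tables do not separate them. In both forms the ITIM is kept, at codons 270 to 275 of 293 in Fcgr2b-202. The 2 other coding forms, Fcgr2b-203 and Fcgr2b-204, were at 0.08 TPM or less in both libraries.

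**Figure D3:**
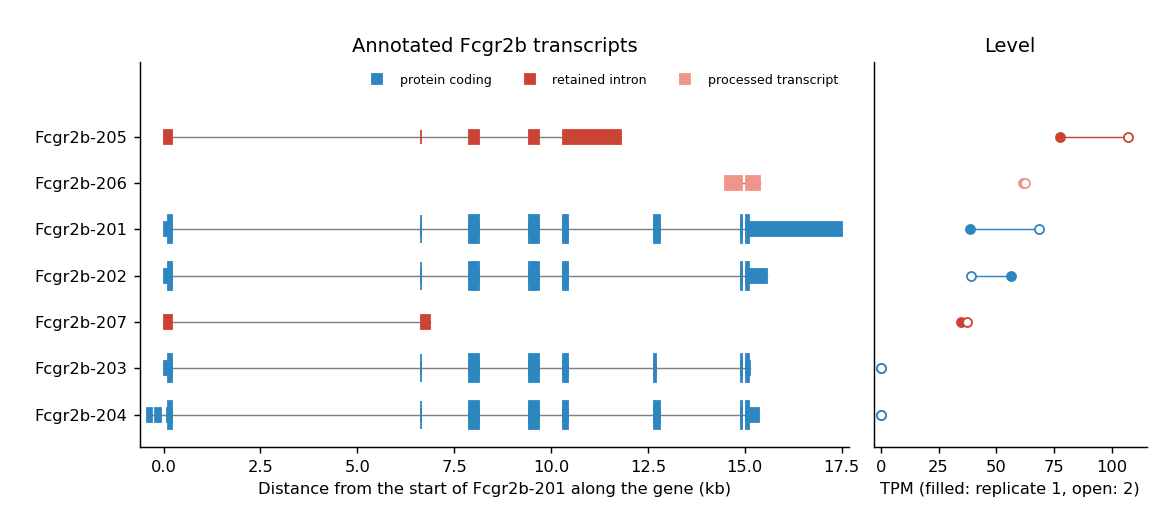
Left, the 7 annotated Fcgr2b transcripts by distance in kb from the start of Fcgr2b-201, with coding parts drawn tall and other exon parts low; right, their TPM in replicate 1 (filled) and replicate 2 (open). The 2 abundant coding forms, Fcgr2b-201 and Fcgr2b-202, change places between the libraries, and Fcgr2b-205, which stops inside intron 5, is highest in both.

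Fcgr3 was split between a coding transcript, Fcgr3-201, with 27.4 and 22.8 TPM, and Fcgr3-203, a retained-intron transcript with 106 bases of intron 2, with 19.4 and 23.8 TPM. Their deposited bounds overlapped in replicate 2, at 15.2 to 29.4 against 13.7 to 29.2. Fcgr3-204, which lacks 3 bases at the start of exon 3, had 2.55 and 3.64 TPM. The second quantification gave Fcgr3-201 19.44 and 10.02 TPM and Fcgr3-203 12.8 and 19.1, and in both quantifications Fcgr3-201 was higher in replicate 1 and Fcgr3-203 in replicate 2.

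Fcgr1 consisted mostly of its coding transcript Fcgr1-201, with 12.2 and 11.6 TPM. Fcgr1-202, annotated as a target of nonsense-mediated decay, had 3.53 TPM from 46.4 estimated counts in replicate 1 and was listed at 0 in replicate 2, where the deposited bound allowed up to 2.67. In the second quantification it had 7.205 and 3.149 TPM. Fcgr4-201, the sole transcript of Fcgr4, held all of that gene's 14.3 and 12.7 TPM.

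Fcer1g was led by Fcer1g-201, the form whose ITAM is shown above, with 162.8 and 200.5 TPM, or 80.6% and 91.3% of the gene. Fcer1g-203, also annotated as protein coding, includes 74 bases of intron 3, and no ITAM was found in its annotated reading frame of 92 codons. It had 21.8 and 13.8 TPM. The retained-intron transcript Fcer1g-202 had 17.4 and 5.20 TPM. The second quantification divided the gene differently, with 100.6 and 119.2 TPM for Fcer1g-201, 87.5 and 46.9 for Fcer1g-203 and 49.98 and 36.53 for Fcer1g-202. Fcer1g-201 was first in both quantifications and both libraries, but its share in the second was 42.3% and 58.8%.

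Relative to other genes, 4 of the 5 genes had lower counts in replicate 2 than in replicate 1, and Fcgr2b had nearly equal ones. On the log2 scale, with counts scaled by TMM, the ratio of replicate 2 to replicate 1 was -0.60 for Fcgr4 (95% counting interval -0.83 to -0.38), -0.57 for Fcgr1 (-0.73 to -0.41), -0.41 for Fcgr3 (-0.52 to -0.30) and -0.23 for Fcer1g (-0.31 to -0.14). For Fcgr2b it was -0.004 (-0.042 to 0.034). The intervals cover counting error only. Over 13510 genes that passed the filter on low counts, 50.2% were lower in replicate 2 and the median log2 ratio was -0.002, and over the 5 genes the median was -0.41. By TMM-scaled counts Fcgr4, at 1.52-fold, was the sole gene of the 5 over 1.5-fold lower in replicate 2, against 11.1% of all genes, and Fcgr1, at 1.48-fold, was just under that size. None of the 5 was over 1.5-fold higher, against 8.34% of all genes, so the count in either direction was 1 of 5 against 19.5%. At 2-fold the count was 0 of 5 in either direction, against 5.54% of all genes, of which 3.38% were lower and 2.16% higher. These counts depended on the measure. With TPM centred on the median gene, 1 of 5 was again over 1.5-fold lower, against 12.2% of all genes, but it was Fcgr1 (-0.82) and no longer Fcgr4 (-0.56). With centred TPM of the second quantification, Fcgr1 (-1.06), Fcgr4 (-0.80) and Fcer1g (-0.60) were over 1.5-fold lower, 3 of 5 against 12.2%, and Fcgr1 was over 2-fold lower, 1 of 5 against 3.5%.

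By TMM-scaled counts, the differences were not outside those of all filtered genes between the same libraries. Those genes were not matched to the 5 on counts, and ratios of the second quantification were not ranked in this way. The biological coefficient of variation, as edgeR names it, was 0.211 between the libraries over the same genes. With a shared donor entry and unequal starting RNA, it cannot be read as biological spread alone. A difference of larger size than that of Fcgr4 was seen in 18.4% of genes, of Fcgr1 in 20.7%, of Fcgr3 in 33.0%, of Fcer1g in 57.5% and of Fcgr2b in 99.2%. Starting RNA differed between the replicates, 1 µg against 500 ng, and its part in the differences cannot be told apart from that of the culture. Centred TPM of the first quantification gave the same direction for all 5, with -0.36 for Fcgr3, -0.27 for Fcer1g and -0.16 for Fcgr2b.

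**Figure D4:**
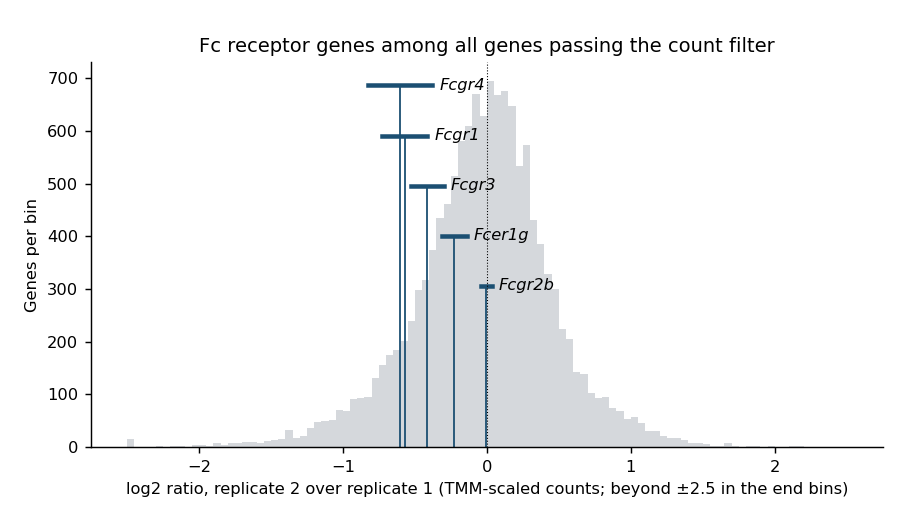
Histogram of the log2 ratio of TMM-scaled counts, replicate 2 over replicate 1, for 13510 genes, with the 5 genes as vertical lines and horizontal bars for the 95% counting interval. Fcgr2b sits at the centre, and the other 4 lie to the left, inside the bulk of the distribution.

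Other genes of antibody receptors, Fc receptor-like proteins and receptor chains were mostly near 0. The list is wider than the genes whose products bind the Fc part of antibodies. Of 14 examined, 3 reached 1 TPM in each library. Trim21, a cytosolic antibody receptor and ubiquitin ligase, had 56.9 and 43.1 TPM, Fcgrt, the neonatal Fc receptor that recycles IgG, had 23.6 and 23.8, and Fcrls, an Fc receptor-like gene, had 17.0 and 16.2. The other chains of the high-affinity IgE receptor, with which Fcer1g pairs in mast cells, were near 0: Fcer1a was at 0 TPM in both libraries and Ms4a2 at 0.01 and 0. All 5 genes of this list that passed the count filter had a lower value in replicate 2, with a median log2 ratio of -0.60, beside 50.2% of all genes lower. Other adaptor genes with an ITAM were represented by Tyrobp (DAP12), at 48.7 and 43.2 TPM, which was the 1 gene of the 8 examined that reached 1 TPM in each library. The next of that list were Hcst (DAP10), an adaptor that signals through a motif other than an ITAM, and Cd79b, with mean levels of 0.58 and 0.295 TPM. Fcer1g was 4.15-fold and 5.08-fold above Tyrobp.

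Among kinase genes of ITAM signalling, which act on the ITAM or after it, Syk was at 244.9 and 360.7 TPM. The Src family kinase Lyn was at 64.3 and 83.5 TPM and the Tec family kinase Tec at 47.8 and 62.5, and 7 of the 9 kinase genes examined reached 1 TPM in each library. All 16 genes of the list of adaptors, lipases, lipid kinases and other signalling proteins of the pathway reached it. The highest was Prkcd (protein kinase C delta) at 207.3 and 258.6 TPM. It was followed by Pik3r5, a regulatory subunit of phosphoinositide 3-kinase gamma, at 193.7 and 260.6. Vav3, a guanine nucleotide exchange factor, was at 102.3 and 109.4. All 13 phosphatase and inhibitory genes reached 1 TPM in each library too. The highest of them was Sirpa, the inhibitory receptor for CD47, at 320.7 and 423.2 TPM, followed by Inppl1 (SHIP2) at 34.6 and 32.5 and the ubiquitin ligase gene Cbl at 27.0 and 38.9. All 15 actin and phagocytic cup genes did as well. The highest were the myosin gene Myo1g at 190.2 and 237.7 TPM and Actr3, a subunit of the Arp2/3 complex, at 85.0 and 136.8. The exchange factor gene Dock2 followed at 72.8 and 112.3 TPM. Since 8566 protein-coding genes reached 1 TPM in each library, these counts alone do not set the 4 lists apart. In these 4 lists the median log2 ratio of scaled counts between the libraries was -0.06 for kinases, -0.02 for adaptors, -0.12 for phosphatases and -0.02 for actin genes, and none held a gene over 1.5-fold higher in replicate 2. Over 1.5-fold lower were no kinases and 2 genes each of the last 3 lists, named here after their values were seen. They were Pik3cd (-0.76) and Card9 (-0.60) among the adaptors and lipid kinases, Dok1 (-0.89) and Inppl1 (-0.67) among the phosphatases and inhibitory genes, and Gsn (-0.79) and Coro1a (-0.61) among the actin genes. As counts these are 2 of 16, 2 of 13 and 2 of 15, beside 11.1% of all genes. Of the 5 filtered genes of the Fc-binding list, 3 were over 1.5-fold lower, namely Trim21 (-0.60) and, named after their values were seen, Fcrl1 (-0.64) and Fcrl5 (-1.10).

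The chromosome 1 genes around the receptors were mostly expressed at lower levels. Of 31 annotated genes between the 4 members or within 100 kb of them, 14 reached 1 TPM in each library. The highest were Dedd at 20.6 and 36.6 TPM and B4galt3 at 23.2 and 17.3. Also among them were Atf6, Gm9929, Dusp12, Gm10522, Sdhc, Tomm40l, Adamts4, Ppox, Usp21, Ufc1 and Gm20045. None of these 14 came up to the level of Fcgr3 in the first quantification, while in the second Dedd, at 32.3 and 46.5 TPM, was above Fcgr3 in replicate 2. Fcgr4, at 14.3 and 12.7 TPM in the first quantification, was below both Dedd and B4galt3 in each library. Around Fcgr1 on chromosome 3, 6 of 30 genes reached 1 TPM in each library, namely the histone genes Hist2h2ac and Hist2h2aa2, the noncoding Gm20634 and the 3 small nuclear RNA genes Gm24830, Rnu1b1 and Rnu1b2. An antisense gene, Gm38204, overlaps Fcgr2b at its start. It had 0.51 and 0.71 TPM in the first quantification and 15.1 and 28.6 in the second. Whether the counting used the strand is not given in the sources used here, so reads of the overlapping stretch cannot be told apart. Within Fcgr4, on the same strand, lies the small nuclear RNA gene Gm26110. It had 7.82 and 0 TPM in the first quantification and 13.4 and 17.3 in the second. Within Fcgr3, on the same strand, lies the microRNA gene Mir6546, at 0 and 0 TPM in the first and 10.9 and 0.957 in the second.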

How the data were processed

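The 2 libraries form 1 group. Per the file headers and deposited notes, the first quantification used reads aligned to the transcriptome (mm10, GENCODE M21) and the second used read files. Names of the aligner and quantifiers: not given in the sources used here. Both quantifications, as the authors deposited them, give estimated counts, which are unnormalized and need not be whole, and TPM, scaled to length and library over all features. Interval bounds (unit signal) are printed as deposited. Features without a gene name (26431) were left out, among them phiX control rows that held 1.14% and 0.304% of all counts. A count of 0 allows 3 counts, or 0.134 and 0.201 CPM.

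Counts were rounded for edgeR 4.0.16 (filterByExpr, TMM, prior count 2, R 4.3.3). A single group allows no test, hence no p-values. The scaling of the ratios was tested on simulated data: over 13510 genes and 20 draws, folds of 2 and 4 in 200 genes came back as log2 0.97 and 1.99. The changed genes were drawn from those with high counts, and the values are medians over them. The simulation therefore does not test ratios of single genes, genes with low counts or reads shared between genes. DESeq2 1.42.0 size factors and other alternatives are described at the end. Sequences were read from the GENCODE M21 transcripts and coordinates of mm10, and lists held genes named by highest mean TPM, 3 per pathway list and 2 per marker list. Transcripts with 5% or more of a gene in either quantification were named. Genes within 100 kb at 1 TPM in both libraries and, for the highest and lowest gene, the 2 genes next above and below in level were also named, except for some that are not reported here. The 5 genes and all lists were chosen with earlier results of these data known.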

Additional observations from a re-analysis of the deposited data

How the results depend on the processing

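Over 66 recomputed values of 20 results, other than those that leave out a replicate, 36 moved by less than the spread between the libraries (for a ratio between the libraries, less than its counting interval), 29 moved by more, and 1, the common chain ratio in estimated counts, crossed 1. With the second quantification, mean TPM became 210.4 for Fcgr2b, 32.8 for Fcgr3 and 9.91 for Fcgr4, the common chain ratio 3.91, and the share of transcripts not annotated as protein coding 36.0% for Fcgr1, 70.0% for Fcgr2b, 49.2% for Fcgr3 and 19.5% for Fcer1g. The leading transcript then held 64.0% of Fcgr1, 26.5% of Fcgr2b and 50.6% of Fcer1g, and the centred log2 ratio was -1.06 for Fcgr1, -0.37 for Fcgr2b and -0.60 for Fcer1g. Centred TPM of the first quantification gave -0.82 for Fcgr1 and -0.16 for Fcgr2b. With protein-coding transcripts only, mean TPM was 101.4 for Fcgr2b and 28.2 for Fcgr3, the activating to inhibitory ratio 0.532 and the common chain ratio 3.75. The posterior mean was 47.6 TPM for Fcgr3, counted as moved against an SD of TPM of 0.58. Such SDs include the shift in TPM scale between the libraries, so they are an uneven yardstick for moves. Rescaling TPM to protein-coding genes raised all levels by construction, to 70.8 for Fcgr1, 1475 for Fcgr2b, 253.7 for Fcgr3, 69.2 for Fcgr4 and 1071 for Fcer1g. With estimated counts in place of TPM, which do not correct for length, the activating to inhibitory ratio was 0.214 and the common chain ratio 0.9497. The share of transcripts not annotated as protein coding was then 49.5% for Fcgr2b. Without Fcgr3 the activating to inhibitory ratio was 0.0945. DESeq2 size factors, no filter before TMM and a prior count of 0.5 left all 5 log2 ratios inside their counting intervals. The cause of the differences between quantifications was not tested. The order of Fcgr2b over Fcer1g also turned, on the means, in the second quantification and with protein-coding transcripts only. Leaving out either replicate, which with 2 libraries returns the other one's value and is no test of stability, gave 11.6 to 15.7 TPM for Fcgr1, 268.6 to 314.1 for Fcgr2b, 49.3 to 50.2 for Fcgr3, 12.7 to 14.3 for Fcgr4 and 202.0 to 219.5 for Fcer1g, 0.237 to 0.295 and 2.55 to 2.95 for the ratios, shares of 0% to 22.5%, 64.6% to 65.7%, 39.2% to 47.3% and 2.37% to 8.62% for Fcgr1, Fcgr2b, Fcgr3 and Fcer1g, and transcripts with the highest mean TPM (Fcgr1-201, Fcgr2b-205, Fcgr3-201, Fcer1g-201) at 77.5% to 100%, 28.8% to 34.1%, 45.4% to 55.6% and 80.6% to 91.3%. No paired analysis was possible because the labels give 1 group. Depth limits Fcgr4 most, with 515 and 228 counts.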
